A study of Homo sapiens with 6 samples.

Results

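The creatine kinases and the genes that supply creatine were examined in the human gastric cancer cell line HGC-27 after knockdown of GXYLT2, a xylosyltransferase that adds xylose to O-glucose on EGF repeats. The set holds 8 genes, CKMT1A, CKMT1B, CKMT2, CKB, CKM, GAMT, GATM and SLC6A8, and each was found by its symbol among the 62703 genes of the deposited count table. It was chosen on the readout described here, because CKMT1B, with its copy CKMT1A, was among the larger rises of the same comparison, and the other 6 genes were added as partners in the pathway. The values of CKMT1A, CKMT1B and their sum are therefore given as a description, with no test. Of the 8 genes, 5 passed the filter on low counts, as did 15693 of all genes. Cells with a stable shRNA against GXYLT2 (shGXYLT2, 3 libraries, labelled as knockdown) were set against cells with a control shRNA (shControl, 3 libraries, labelled as wild type). Both groups were grown in RPMI 1640 with 10% fetal bovine serum and carry an shRNA construct. The labels name no other shRNA against GXYLT2, so loss of GXYLT2 and other effects of this shRNA cannot be told apart. Nothing in the labels tells whether replicates came from separate cultures or clones. The spread behind each p-value is therefore that of these libraries alone and may be technical.

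Creatine is made in 2 steps. GATM joins arginine and glycine into guanidinoacetate, and GAMT adds a methyl group from S-adenosylmethionine. SLC6A8 brings creatine into cells from outside. Creatine kinases move phosphate between ATP and creatine, which gives cells a quickly used energy store. CKB is the brain-type cytosolic enzyme, known in the stomach from acid-secreting parietal cells, and CKM is the cytosolic enzyme of muscle. Mitochondrial creatine kinases sit between the outer and inner mitochondrial membranes, where ATP leaves the matrix. CKMT1A and CKMT1B both encode the ubiquitous form, and CKMT2 encodes the form of striated muscle.

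CKMT1A and CKMT1B are near-identical neighbours on chromosome 15, so the counting could divide reads between them. CKMT1A (ENSG00000223572) lies at chr15:43692886-43699222 and CKMT1B (ENSG00000237289) at chr15:43593054-43604901, both on the plus strand of GRCh38 in GENCODE 29. Their coding sequences in transcripts CKMT1A-204 and CKMT1B-201 are 1251 bases long and were identical at 1249 bases (99.84%). Counted from the first coding base, with the CKMT1A base first, the differences were G1056A and C1086T. The stretch that holds both, coding bases 1041 to 1101, is shown because reads over it can tell the copies apart; capitals mark the differing bases. It lies in coding exon sequence at chr15:43698670-43698730 in CKMT1A and chr15:43598856-43598916 in CKMT1B, plus strand.
CKMT1A: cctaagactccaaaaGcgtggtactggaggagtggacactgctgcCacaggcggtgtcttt
CKMT1B: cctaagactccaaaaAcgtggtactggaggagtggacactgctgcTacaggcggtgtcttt
Over the whole transcripts, each of 1779 bases, 4 bases differed. Of the 1680 stretches of 100 bases in CKMT1A-204, 1449 (86.2%) also occurred in CKMT1B. The coding sequence of CKMT1A-204 shared 64.38% of aligned positions with CKB-201 and 73.49% with CKMT2, and CKB-201 held no stretch of 100 bases in common with either copy.

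The copies also share promoter sequence. RefSeq windows on GRCh38.p14, from 250 bases before to 50 after a start, were compared for the genes that were higher in shGXYLT2 libraries. Of the 5 windows of CKMT1A and the 2 of CKMT1B, the pair with the longest unbroken shared run was taken, at 275 of 300 bases. The run starts at base 1 of the CKMT1A window and base 26 of the CKMT1B window. The 2 windows are thus offset from each other and identical wherever they overlap. These are shown with the single CKB window, 5′ to 3′ on the gene's strand, and capitals mark, on either strand, every match to the TATA box TATAAA, the CCAAT box, the GC box GGGCGG and the E-box CACGTG. They lie at chr15:43693441-43693740 (plus) for CKMT1A, chr15:43593584-43593883 (plus) for CKMT1B and chr14:103522781-103523080 (minus) for CKB.
CKMT1A: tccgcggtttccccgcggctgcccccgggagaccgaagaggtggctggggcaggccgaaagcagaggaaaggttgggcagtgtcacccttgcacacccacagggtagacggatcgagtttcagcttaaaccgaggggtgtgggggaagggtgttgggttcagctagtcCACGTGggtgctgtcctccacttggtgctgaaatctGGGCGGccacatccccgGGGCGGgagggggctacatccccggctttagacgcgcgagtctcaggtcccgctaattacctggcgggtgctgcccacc
CKMT1B: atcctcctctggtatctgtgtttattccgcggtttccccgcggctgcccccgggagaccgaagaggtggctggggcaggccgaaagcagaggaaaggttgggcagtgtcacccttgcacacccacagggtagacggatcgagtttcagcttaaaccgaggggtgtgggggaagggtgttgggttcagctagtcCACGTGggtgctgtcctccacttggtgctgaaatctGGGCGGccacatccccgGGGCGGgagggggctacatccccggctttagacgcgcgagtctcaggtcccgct
CKB: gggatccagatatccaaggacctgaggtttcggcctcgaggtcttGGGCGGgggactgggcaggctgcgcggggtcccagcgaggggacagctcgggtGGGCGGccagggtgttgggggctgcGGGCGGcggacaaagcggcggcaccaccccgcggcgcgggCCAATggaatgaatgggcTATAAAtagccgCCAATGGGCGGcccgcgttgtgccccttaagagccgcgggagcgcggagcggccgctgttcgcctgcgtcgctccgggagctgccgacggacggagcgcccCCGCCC
Both CKMT1 windows shown held 1 E-box, which 7.26% of the 35116 windows of all genes held. Each also held 2 GC boxes, found in 45.0% of windows. The CKB window held 5 GC boxes, of which the last is on the opposite strand, 2 CCAAT boxes (in 34.6% of windows) and 1 TATA box (in 11.5%), and its second CCAAT box adjoins a GC box. No E-box was found in the CKB window, and no TATA or CCAAT box in the CKMT1 windows shown, although CCAAT boxes occurred in 2 of the other 4 windows of CKMT1A. These matches describe letters in the windows and were not related to the readout.

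Libraries held 22188073 to 24898425 estimated counts in shGXYLT2 and 17291138 to 22540099 in shControl. GXYLT2 had 5.27, 6.27 and 5.34 CPM (counts per 1000000, scaled by TMM factors) in shGXYLT2 libraries, against 20.7, 22.8 and 20.2 CPM in shControl libraries. The groups did not overlap, and GXYLT2 fell by 1.91 on the log2 scale (SE 0.109, edgeR adjusted p = 6.3e-10). The labelled cell type was compared with 14 gastric and epithelial markers. Of these, GKN1, MUC5AC, PGC, TFF1 and TFF2 had 0 counts in all libraries. EPCAM, KRT7, KRT18, KRT19 and CLDN18 had 17, 21, 6, 2 and 24 counts in all. MUC1 averaged 7.50 CPM in shGXYLT2 and 7.31 CPM in shControl. CDH1 averaged 2.33 CPM in shGXYLT2 and 2.92 CPM in shControl, and KRT8 averaged 1.78 CPM in shGXYLT2 and 1.57 CPM in shControl. MUC6 is given below. Only 4 of the 14 passed the filter on low counts, so the list cannot decide whether the label holds. In such bulk samples, fewer cells expressing a gene and less RNA per cell cannot be told apart.

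The mitochondrial creatine kinase copies were both about 3-fold higher in shGXYLT2 libraries. CKMT1A had 9.23, 11.4 and 10.0 CPM in shGXYLT2, against 2.99, 3.46 and 3.17 CPM in shControl. CKMT1B had 11.8, 10.8 and 13.6 CPM in shGXYLT2, against 3.91, 3.87 and 4.22 CPM in shControl. In both genes the lowest shGXYLT2 library stood above the highest shControl library. Within shGXYLT2, replicate 2 was the highest library for CKMT1A and the lowest for CKMT1B. CKMT1A averaged 10.2 ± 1.08 CPM in shGXYLT2 and 3.20 ± 0.236 CPM in shControl (SD, n = 3 each), a fitted log2 fold change of 1.67 (SE 0.141). CKMT1B averaged 12.0 ± 1.40 CPM in shGXYLT2 and 4.0 ± 0.195 CPM in shControl, a fitted log2 fold change of 1.58 (SE 0.133). By size of rise they ranked 33 and 39 among the 15693 tested genes.

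The sum of the copies varied less between replicates than either copy did. The estimated counts of each copy were not whole numbers in any of the 6 libraries, but their sum was whole in all 6, within a tolerance of 0.006 counts. It was 526, 544 and 525 counts in shGXYLT2, against 120, 125 and 168 counts in shControl. After scaling, the sum was 21.0, 22.2 and 23.6 CPM in shGXYLT2 and 6.90, 7.32 and 7.39 CPM in shControl. The sum averaged 22.2 ± 1.28 CPM in shGXYLT2 and 7.20 ± 0.267 CPM in shControl, which was 3.08-fold higher in shGXYLT2 (log2 fold change 1.62, SE 0.10). In both groups its SD was smaller, relative to the mean, than that of CKMT1A or CKMT1B, and the standard error of the fold change was smaller than for either copy. CKMT1A took 43.9%, 51.2% and 42.5% of the summed counts in shGXYLT2 libraries and 43.1%, 47.0% and 42.9% in shControl libraries. These shares overlapped between the groups, at 45.9 ± 4.71% in shGXYLT2 and 44.3 ± 2.30% in shControl.

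**Figure D1:**
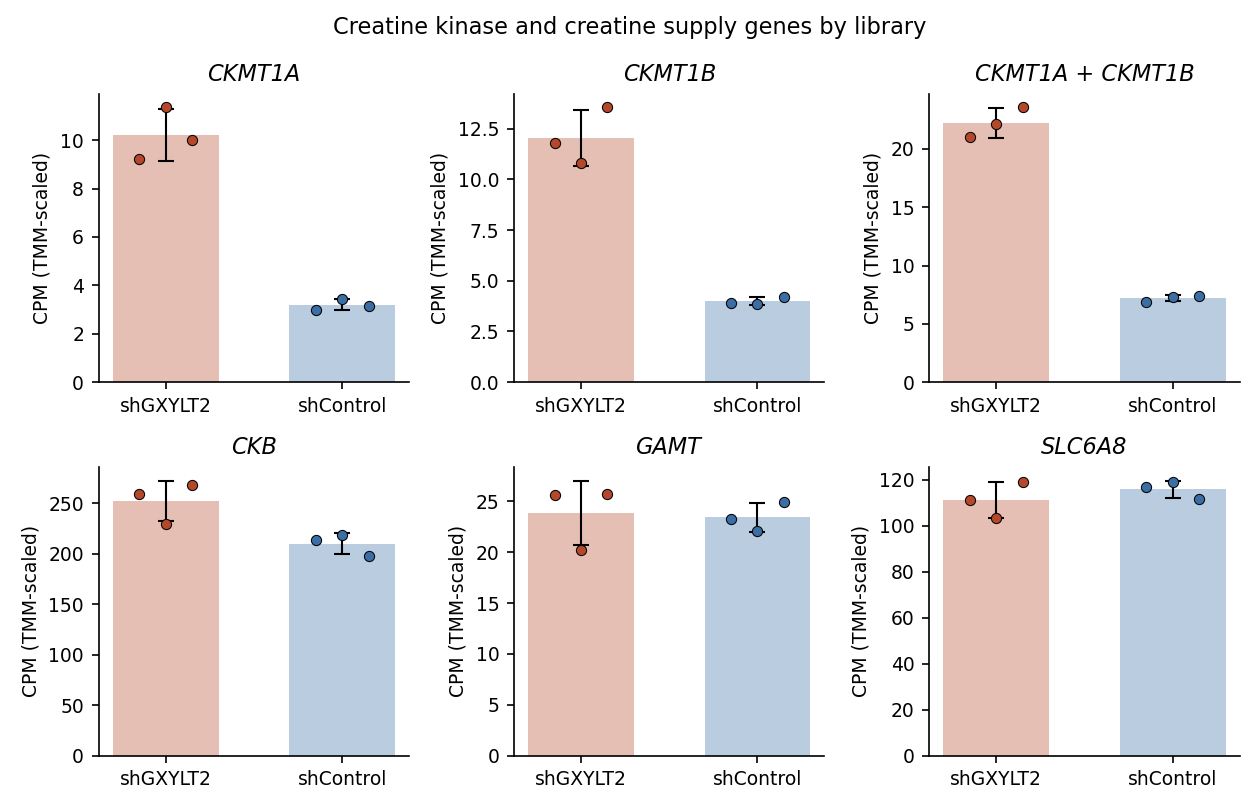
CPM scaled by TMM factors (y axis, from 0) of the 5 creatine genes that passed the filter and of the CKMT1A and CKMT1B sum, in shGXYLT2 and shControl libraries. Points are libraries, bars are group means and whiskers are SD (n = 3 each); the CKMT1 panels and CKB show groups that do not overlap, and GAMT and SLC6A8 show groups that do.

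CKB (ENSG00000166165, chr14:103519659-103523111, minus strand), the cytosolic brain-type enzyme, rose by 20.1% in shGXYLT2 libraries. It had 259, 229.8 and 268 CPM in shGXYLT2, against 213, 219 and 198 CPM in shControl, from 5643 to 6486 counts in shGXYLT2 and 3713 to 4506 counts in shControl. All shGXYLT2 libraries stood above all shControl libraries, and replicate 2 of shGXYLT2 was only slightly above the highest shControl library. CKB averaged 252 ± 20.1 CPM in shGXYLT2 and 210.2 ± 10.8 CPM in shControl, a log2 fold change of 0.26 (95% interval 0.13 to 0.40, edgeR adjusted p = 0.0108 over all tested genes). Without shControl replicate 3, its lowest library, the log2 fold change was 0.22 and the edgeR adjusted p was 0.0906, so the call was lost. It was kept without any other single library. Without shGXYLT2 replicate 3 the log2 fold change was also 0.22, with an edgeR adjusted p of 0.0121. Why the call was lost was not tested. CKB is also known from neurons. Of 11 neuronal markers 6 were tested, none fell and 2 rose, beside 5.31% of all tested genes that were higher: SYT1 (15.6 ± 1.99 CPM in shGXYLT2 and 10.4 ± 0.533 CPM in shControl) and SYP (1.30 ± 0.172 CPM in shGXYLT2 and 0.592 ± 0.0212 CPM in shControl). TUBB3, the most abundant of them, averaged 49.0 ± 3.68 CPM in shGXYLT2 and 55.5 ± 0.445 CPM in shControl, with groups that did not overlap, and did not pass the test (edgeR adjusted p = 0.106). The summed level of that list was 70.2 to 79.0 CPM in shGXYLT2 and 72.4 to 74.7 CPM in shControl, scaled to the library total alone, and ELAVL4 had no count in any library.

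The creatine kinases of muscle were near the limit of detection. CKM (ENSG00000104879, chr19:45306414-45322977, minus strand) had 3, 1 and 1 counts in shGXYLT2 libraries and 0, 1 and 1 in shControl libraries. CKMT2 (ENSG00000131730, chr5:81233285-81266397, plus strand) had 2, 1 and 0 counts in shGXYLT2 and 1, 1 and 1 in shControl. A difference was not detectable at this depth for either gene, since a count of 0 allows up to 3 counts, which is 0.120 to 0.176 CPM per library. CKMT2-AS1, the antisense gene beside CKMT2, was measured at 8.68 ± 1.37 CPM in shGXYLT2 and 7.54 ± 0.487 CPM in shControl and did not pass the test (edgeR adjusted p = 0.373). The use of strand in the counting is not stated, so reads of the overlapping pair may be mixed. Of 16 striated muscle markers, MYOD1, MYOG, MYF5, MYF6, ACTC1 and TNNT3 had 0 counts in all libraries, while TNNT1 averaged 23.3 ± 0.825 CPM in shGXYLT2 and 23.1 ± 1.63 CPM in shControl, and TNNC1 5.41 ± 1.03 CPM in shGXYLT2 and 7.11 ± 1.19 CPM in shControl with groups that did not overlap. Of the list 4 were tested and none passed (edgeR adjusted p = 0.131 for TNNC1), and the summed level was 28.9 to 33.0 CPM in shGXYLT2 and 30.1 to 34.5 CPM in shControl.

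On the supply side, the members that could be tested, GAMT and SLC6A8, showed no change past the test. GATM (ENSG00000171766, chr15:45361124-45402327, minus strand), which makes guanidinoacetate, had 4, 2 and 1 counts in shGXYLT2 libraries and 1, 0 and 2 in shControl libraries, too few to test. GAMT (ENSG00000130005, chr19:1397026-1401570, minus strand), which methylates guanidinoacetate, had 25.6, 20.2 and 25.8 CPM in shGXYLT2, against 23.3, 22.1 and 24.9 CPM in shControl. The groups overlapped, with the lowest value in shGXYLT2 replicate 2. The log2 fold change of GAMT was 0.022 with a 95% interval of -0.18 to 0.23 (edgeR adjusted p = 0.915).

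SLC6A8 (ENSG00000130821, chrX:153688099-153696593, plus strand), the creatine transporter, had 111, 103 and 119 CPM in shGXYLT2 libraries, against 117, 119 and 112 CPM in shControl libraries. These groups overlapped too. Its log2 fold change was -0.06 with a 95% interval of -0.19 to 0.07 (edgeR adjusted p = 0.615), so the interval leaves room for a difference of either sign but not for one of the size seen in CKMT1A and CKMT1B. SLC6A8 has copies on other chromosomes that can take its reads, and its estimated counts were not whole in any library. The listed copies were 2 rows of SLC6A10P, at 20.2 ± 1.39 CPM in shGXYLT2 and 19.7 ± 2.54 CPM in shControl for the higher row, and 2 unnamed genes. Of the 3664 stretches of 100 bases in SLC6A8-201, 71 (1.94%) occurred in the lower SLC6A10P row or the unnamed genes. The higher row was not compared. None of the listed copies passed the test (edgeR adjusted p = 0.659 to 0.976), and SLC6A8 summed with them did not pass either.

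Per kilobase of the deposited gene length, CKB stood far above the other creatine genes in both groups. CKB had 169 ± 13.5 CPM per kilobase in shGXYLT2 and 141 ± 7.25 in shControl, SLC6A8 had 28.2 ± 1.97 in shGXYLT2 and 29.4 ± 0.949 in shControl, and GAMT had 13.5 ± 1.79 in shGXYLT2 and 13.2 ± 0.810 in shControl. The CKMT1A and CKMT1B sum had 14.1 ± 0.812 CPM per kilobase in shGXYLT2 and 4.56 ± 0.169 in shControl. It was thus below GAMT in every shControl library, whereas in shGXYLT2 the levels of the sum and of GAMT overlapped and their order did not hold beyond the spread. CKM, CKMT2 and GATM were below all of these.

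Creatine kinase transcripts held a larger share of the mitochondrial form in shGXYLT2 libraries. As a share of all creatine kinase CPM per kilobase, the CKMT1A and CKMT1B sum made up 7.11%, 8.35% and 7.67% in shGXYLT2 libraries, against 2.96%, 3.06% and 3.40% in shControl libraries. CKB made up nearly all the rest, at 92.3 ± 0.600% in shGXYLT2 and 96.8 ± 0.235% in shControl. CKB was 12.0 ± 1.04 times the mitochondrial sum per kilobase in shGXYLT2 and 30.9 ± 2.27 times in shControl, or 14.3 times in shGXYLT2 and 36.8 times in shControl with the length of the longest annotated transcript. All creatine kinases together had 183 ± 13.7 CPM per kilobase in shGXYLT2 and 146 ± 7.19 in shControl. Since CKMT1A and CKMT1B were chosen for their rise, these shares are a description.

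**Figure D2:**
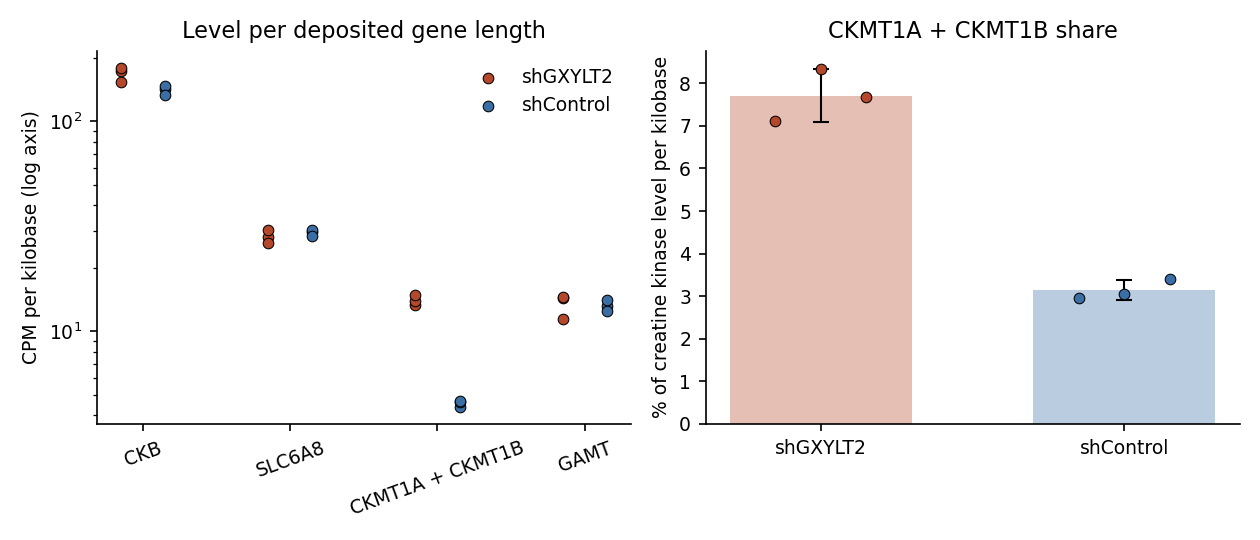
Left, CPM per kilobase of deposited gene length (log axis) of CKB, SLC6A8, the CKMT1A and CKMT1B sum and GAMT, with a point per shGXYLT2 or shControl library. Right, the share of all creatine kinase CPM per kilobase held by the CKMT1A and CKMT1B sum, with points for libraries, bars for means and whiskers for SD (n = 3 each); the shares average 7.71% in shGXYLT2 and 3.14% in shControl.

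Of the 8 genes, 3 could be tested that the selection did not use, CKB, GAMT and SLC6A8, and of these 1 rose, CKB, and none fell. Across all 15693 tested genes 12.2% passed the threshold of 0.05 on the adjusted p in either direction, 5.31% higher and 6.84% lower. Of the same 3 genes only CKB had groups that did not overlap, which held for 30.4% of all tested genes. CKMT1A and CKMT1B also had groups that did not overlap, but they were selected on this contrast and share reads, so nothing is read from that. The log2 fold changes of CKB, GAMT and SLC6A8 were 0.26, 0.022 and -0.06, beside a median of -0.01 over all tested genes.

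The genes around the copies did not share the size of their change. Within 250 kb of either copy 31 other genes are annotated and 15 were tested, of which 1 rose and 3 fell, beside 5.31% higher and 6.84% lower of all tested genes, with log2 fold changes of -0.58 to 0.50. PPIP5K1, an inositol pyrophosphate kinase next to CKMT1B, had 39.1, 42.9 and 42.8 CPM in shGXYLT2, against 27.0, 30.3 and 30.7 CPM in shControl (log2 fold change 0.50, edgeR adjusted p = 0.000244). Its groups did not overlap, and its estimated counts were not whole in 5 of 6 libraries. MAP1A, a microtubule-associated protein on the far side of PPIP5K1, had 44.9, 45.1 and 44.7 CPM in shGXYLT2, against 65.5, 64.2 and 65.2 CPM in shControl (log2 fold change -0.53, edgeR adjusted p = 1.2e-05). ZSCAN29, a zinc finger gene, fell by 0.58 on the log2 scale (33.0 ± 1.66 CPM in shGXYLT2 and 49.4 ± 3.27 CPM in shControl, edgeR adjusted p = 2.81e-05), and WDR76 fell by 0.22 (edgeR adjusted p = 0.0341). The WDR76 call was lost without shGXYLT2 replicate 1 or any shControl library, at edgeR adjusted p = 0.0879 to 0.184. STRC, the hearing gene next to CKMT1B, had 10 counts in all and was not tested. CATSPER2, a sperm calcium channel gene that lies between the copies, had 2.56 ± 0.336 CPM in shGXYLT2 and 2.03 ± 0.815 CPM in shControl, with overlapping groups (edgeR adjusted p = 0.493).

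**Figure D3:**
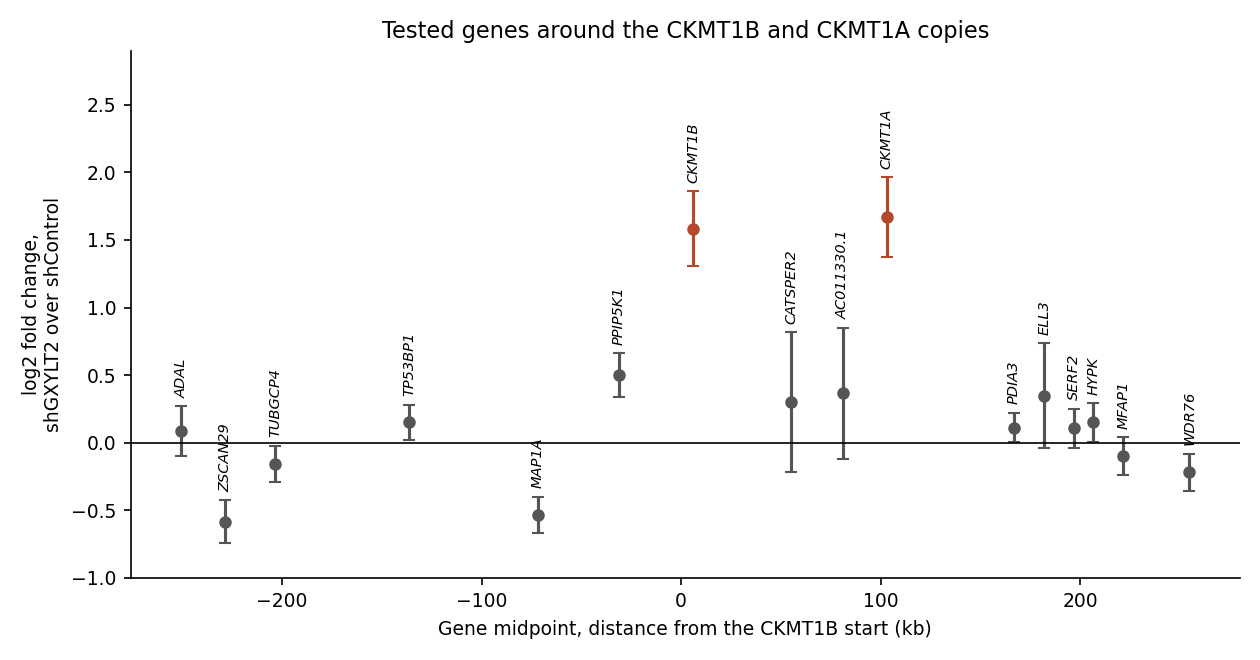
Fitted log2 fold change of shGXYLT2 over shControl (y axis) for CKMT1B, CKMT1A and 14 of the 15 tested genes within 250 kb of them, against the distance of each gene's midpoint from the CKMT1B start in kb. Whiskers are 95% intervals; FRMD5, whose midpoint lies 440 kb away, is not drawn, and CKMT1B at 1.58 and CKMT1A at 1.67 stand above every neighbour, of which PPIP5K1 is highest at 0.50.

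The wider pathway was described by 7 lists with 70 genes, of which 52 were tested, 4 rose and 8 fell, beside 5.31% higher and 6.84% lower of all tested genes. Without shControl replicate 1, 2 or 3, the 12 calls became 4, 6 and 5. The lists were not compared with each other by a test. Of 17 genes of arginine and glycine supply 13 were tested, none rose and 2 fell, with a list median log2 fold change of 0.02. SLC7A2, a transporter of arginine and other cationic amino acids, had 181, 182 and 154 CPM in shGXYLT2, against 323, 315 and 327 CPM in shControl. No shGXYLT2 library came near the shControl range, and SLC7A2 fell by 0.90 on the log2 scale (SE 0.0649, edgeR adjusted p = 1.31e-08). SHMT2, which makes glycine from serine in mitochondria, had 240.0, 216 and 249 CPM in shGXYLT2, against 303, 300.5 and 293 CPM in shControl, a log2 fold change of -0.35 (edgeR adjusted p = 0.000746). SLC7A1, the other main arginine transporter listed, averaged 215 ± 12.4 CPM in shGXYLT2 and 228 ± 5.29 CPM in shControl, and ASS1, which makes argininosuccinate on the way to arginine, averaged 228 ± 17.4 CPM in shGXYLT2 and 221 ± 5.07 CPM in shControl. Neither SLC7A1 nor ASS1 passed the test.

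Methyl donor supply provides the S-adenosylmethionine that GAMT uses. Of 12 genes 8 were tested, none rose and 1 fell, with a median log2 fold change of -0.10. MAT2B, the regulatory subunit of methionine adenosyltransferase, had 40.8, 36.3 and 37.6 CPM in shGXYLT2, against 90.4, 94.1 and 84.4 CPM in shControl. The groups were far apart, and MAT2B fell by 1.23 on the log2 scale (SE 0.0702, edgeR adjusted p = 6.3e-10). MAT2A, the catalytic subunit, averaged 671 ± 7.06 CPM in shGXYLT2 and 735 ± 29.4 CPM in shControl and did not pass the test.

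Of 8 genes of mitochondrial ATP and phosphate exchange 7 were tested, 2 rose and 1 fell, with a median log2 fold change of 0.11. VDAC1, a channel of the outer mitochondrial membrane, averaged 430 ± 8.80 CPM in shGXYLT2 and 379 ± 15.8 CPM in shControl (log2 fold change 0.18, edgeR adjusted p = 0.0348). SLC25A3, the mitochondrial phosphate carrier, averaged 546 ± 13.2 CPM in shGXYLT2 and 479 ± 14.6 CPM in shControl (log2 fold change 0.19, edgeR adjusted p = 0.0263). SLC25A5, an exchanger of ADP and ATP, averaged 477 ± 17.5 CPM in shGXYLT2 and 539 ± 19.1 CPM in shControl (log2 fold change -0.18, edgeR adjusted p = 0.0435). The VDAC1 and SLC25A3 calls were lost without shGXYLT2 replicate 1 or any shControl library, at edgeR adjusted p = 0.0525 to 0.171, and the SLC25A5 call also without shGXYLT2 replicate 2, at 0.0698 to 0.188. Among adenylate kinases, which pass phosphate between nucleotides, 6 of 9 were tested and 1 rose, with a median of 0.01 on the log2 scale. AK3, a form of the mitochondrial matrix, averaged 104.5 ± 7.94 CPM in shGXYLT2 and 87.7 ± 1.52 CPM in shControl (edgeR adjusted p = 0.0153). The AK3 call was lost without shGXYLT2 replicate 2 or any shControl library, at edgeR adjusted p = 0.0612 to 0.0851.

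Of the 10 AMPK subunits and upstream kinase components, the sensor of low cellular energy, 9 were tested, none rose and 2 fell, with a median log2 fold change of 0.01. PRKAA1, a catalytic subunit, averaged 118 ± 12.8 CPM in shGXYLT2 and 144 ± 10.1 CPM in shControl (log2 fold change -0.28, edgeR adjusted p = 0.0174). CAB39, a partner of the upstream kinase STK11, averaged 57.8 ± 5.55 CPM in shGXYLT2 and 72.7 ± 3.20 CPM in shControl (log2 fold change -0.33, edgeR adjusted p = 0.00581). PRKAA1 was not called without shControl replicate 1 (edgeR adjusted p = 0.0671) or 3 (0.133), nor CAB39 without shControl replicate 2 (0.0512). Of 9 mitochondrial biogenesis factors 7 were tested, none rose and 2 fell, with a median of -0.15. ESRRA, an orphan nuclear receptor active on genes of energy metabolism, averaged 28.2 ± 2.91 CPM in shGXYLT2 and 34.6 ± 1.93 CPM in shControl (edgeR adjusted p = 0.0273). Its relative ESRRB averaged 2.88 ± 0.232 CPM in shGXYLT2 and 4.75 ± 0.675 CPM in shControl (edgeR adjusted p = 0.00839). ESRRA was not called without shGXYLT2 replicate 2 or shControl replicate 1 or 3 (edgeR adjusted p = 0.0909 to 0.144), nor ESRRB without shControl replicate 1 (0.0762). Of 5 other creatine transporters or relatives 2 were tested, and SLC16A9, known to carry creatine and carnitine, rose to 31.2 ± 1.84 CPM in shGXYLT2, against 26 ± 0.943 CPM in shControl (edgeR adjusted p = 0.0341). The SLC16A9 call was kept without shGXYLT2 replicate 3 but lost without each other library (edgeR adjusted p = 0.0618 to 0.157). SLC6A6, the taurine transporter, averaged 41.5 ± 1.75 CPM in shGXYLT2 and 47.0 ± 1.28 CPM in shControl and did not pass (edgeR adjusted p = 0.101).

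**Figure D4:**
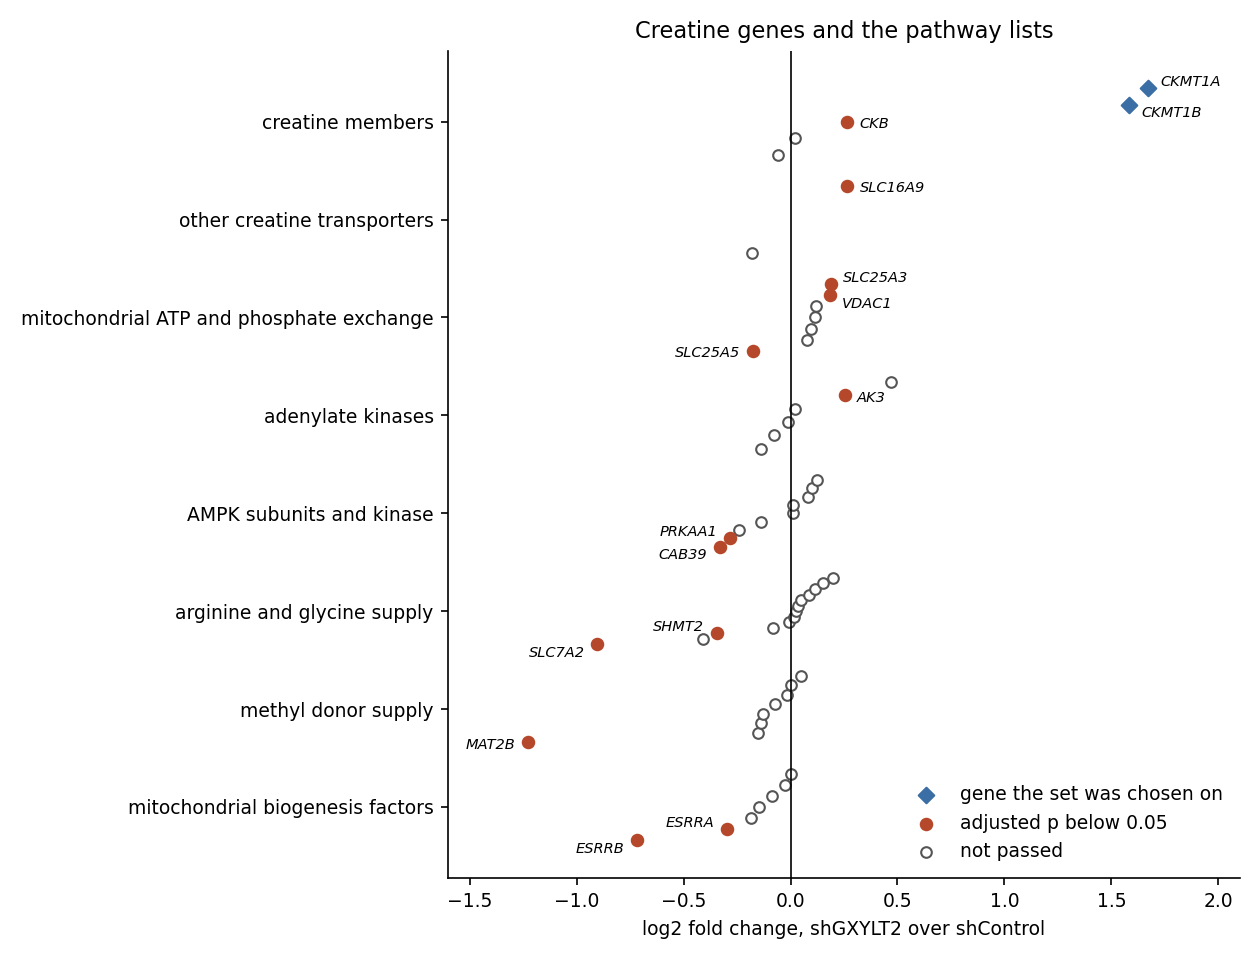
Fitted log2 fold change of shGXYLT2 over shControl (x axis) for each tested gene of the creatine set and of 7 pathway lists (rows). Diamonds are the genes the set was chosen on, filled circles passed the adjusted p threshold of 0.05 and open circles did not; the positive end holds CKMT1A and CKMT1B, and the negative end holds MAT2B at -1.23 and SLC7A2 at -0.90.

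By centred log2 of CPM plus 0.5 over the 6 libraries, the 5 tested genes nearest to the CKMT1A and CKMT1B sum were GNG4, SEMA6D, GPM6A, SPOCK3 and MOXD1, with a root mean square difference of 0.134 to 0.159 on that log2 scale. GNG4, a G protein gamma subunit, had 27.3, 25.5 and 26 CPM in shGXYLT2, against 8.16, 8.14 and 6.95 CPM in shControl. SEMA6D, a semaphorin, had 3.76, 3.79 and 3.23 CPM in shGXYLT2 and 0.862, 0.703 and 0.924 CPM in shControl. All 5 were higher in every shGXYLT2 library than in any shControl library, a direction that the way they were picked sets. GPM6A, a membrane glycoprotein, averaged 6.95 ± 0.323 CPM in shGXYLT2 and 2.50 ± 0.175 CPM in shControl, SPOCK3, a matrix proteoglycan, 6.22 ± 0.508 CPM in shGXYLT2 and 2.06 ± 0.184 CPM in shControl, and MOXD1, a relative of dopamine beta-hydroxylase, 8.19 ± 0.609 CPM in shGXYLT2 and 2.96 ± 0.0763 CPM in shControl.

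Markers of other cell types moved in part with these differences. Of 9 endothelial and fibroblast markers 5 were tested, none fell and 2 rose, beside 5.31% of all tested genes that were higher: DCN (250.4 ± 1.49 CPM in shGXYLT2 and 186 ± 7.99 CPM in shControl) and LUM (239.6 ± 20.9 CPM in shGXYLT2 and 180.1 ± 1.91 CPM in shControl), both proteoglycans of connective tissue. Of the others tested, PDGFRA averaged 30.3 ± 1.61 CPM in shGXYLT2 and 26.2 ± 0.823 CPM in shControl, and FAP 8.51 ± 1.36 CPM in shGXYLT2 and 8.89 ± 0.890 CPM in shControl. PDGFRB averaged 0.673 ± 0.216 CPM in shGXYLT2 and 1.28 ± 0.195 CPM in shControl. None of these passed, although the groups did not overlap for PDGFRA, higher in shGXYLT2, or PDGFRB, lower in shGXYLT2. The summed level of the 9 markers was 505 to 546 CPM in shGXYLT2 and 399 to 404 CPM in shControl. Most of that sum came from DCN and LUM, while PECAM1, CDH5 and KDR had 0 counts in all libraries. Of the gastric and epithelial markers 4 were tested and MUC6 rose (4.22 ± 1.10 CPM in shGXYLT2 and 2.05 ± 0.244 CPM in shControl), with sums of 16.3 to 16.8 CPM in shGXYLT2 and 13.6 to 14.8 CPM in shControl. Of 7 leukocyte markers 1 was tested and did not pass, CD3E had 0 counts, and their sum was 1.57 to 2.21 CPM in shGXYLT2 and 1.79 to 2.13 CPM in shControl. The part of these marker differences in the CKMT1A, CKMT1B and CKB results was not tested.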

How the data were processed

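RNA-seq libraries of 6 HGC-27 samples were analysed, with groups and replicate numbers taken from the sample titles. Per the labels' protocols, RNA came from TRIzol extraction, followed by an Illumina stranded kit for mRNA by ligation. The submitters' processing notes name fastp, HISAT2, StringTie and GRCh38.p13; how reads were counted, on which annotation and with what use of strand is not given in the sources used here. Estimated counts without normalization are what the authors deposited. Of its values 12.3% were not whole, so reads that several genes could claim may be divided between them. The deposited gene length is undefined and served only for levels per kilobase and for the length offsets.

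Counts were rounded, filtered with filterByExpr by group, TMM-scaled and tested in edgeR 4.0.16 (R 4.3.3) by its quasi-likelihood F-test with robust dispersions and no term but group. Two-sided p-values were adjusted over 15693 genes (Benjamini-Hochberg) and called below 0.05. The standard error is the log2 fold change over the square root of the F statistic. The sum of CKMT1A and CKMT1B replaced both rows in a further fit of 15692 genes. CPM values are scaled by TMM factors, except summed marker levels, which are scaled to the library total alone. Pairs of libraries differed by a chi-square of 5.84 to 10.9 per degree of freedom within shGXYLT2 and 1.98 to 4.02 within shControl, so none was taken as a copy of another. The floor of 3 counts covers counting error only. The 95% intervals on log2 fold changes come from the fit and include the spread between libraries. The fit was tested on simulated data.

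The creatine genes, the pathway and marker lists and the tests were chosen with earlier results of these data known. Named genes are all members, GXYLT2, up to 3 genes past the threshold in each pathway list, or the 2 most abundant where none passed, tested genes within 250 kb of the copies and the 5 nearest patterns; SLC7A1, ASS1, MAT2A, SLC6A6 and the marker genes were named outside this rule. Positions and transcripts came from GENCODE 29 and promoter windows from RefSeq; GAMT had no window there. Alternatives were other scalings, filters, DESeq2 1.42.0, limma 3.58.1 with voom, a replicate block, each library left out, and, added after the data were seen, GC content and length offsets (96.3% of tested genes matched) and SLC6A8 summed with its copies.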

Additional observations from a re-analysis of the deposited data

How the results depend on the processing

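The 16 alternative fits left the CKMT1A and CKMT1B sum at a log2 fold change of 1.58 to 1.67, a description of genes selected on this contrast. CKB passed in each of them except without shControl replicate 3. The edgeR adjusted p of CKB ranged from 4.11e-06 with GC content and length offsets to 0.0906 without shControl replicate 3 (0.049 without shGXYLT2 replicate 1). GAMT and SLC6A8 passed in none of them. Over all genes the count of changed genes, 1907, became 3029 with GC content and length offsets, which were added after seeing the data, and ranged from 960 to 2347 with each library left out; the lowest counts were 990, 1152 and 960 without shControl replicates 1, 2 and 3. The count of pathway genes past the threshold, 12, ranged from 4 to 12 with each library left out and was 4, 6 and 5 without those same libraries. The cause was not tested; each such fit held fewer samples. SLC7A2, SHMT2, MAT2B, PPIP5K1, MAP1A and ZSCAN29 passed in all 16, whereas SLC25A5 was lost in 8, WDR76 in 7, VDAC1 and SLC16A9 in 6, SLC25A3 in 5, AK3 in 4, ESRRA in 3, PRKAA1 in 2 and CAB39 and ESRRB in 1 each. Replicate numbers are those of the titles, and for replicate 2 the deposited column numbers differ between the groups. Those title numbers did not pair the libraries. Same-numbered libraries deviated with correlations of -0.000174, -0.0790 and -0.0778, and none matched its own number best. With the number as a replicate block 1471 genes changed, with 8 pathway genes, a CKB adjusted p of 0.0274 and a CKMT1 log2 fold change of 1.63; block and offsets together gave 2520. Depth limits CKM, CKMT2 and GATM, at 0 to 4 counts per library.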
